A study of Rattus norvegicus with 65 samples.

Results

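The effect of doxorubicin (Dox) on gene expression was compared between 24 and 6 hours of exposure in primary neonatal rat cardiomyocytes, heart muscle cells taken from newborn rats and grown in culture. For every gene, the difference between Dox and its DMSO control at 24 hours was set against the same difference at 6 hours, and all 14554 genes of the count table were included. The comparison rests on 28 of the 65 libraries of the series, with 7 libraries in each of 4 groups. Cells were given 1.25 μM Dox for 6 hours (Dox_6) or 24 hours (Dox_24), or 0.25% DMSO, the solvent of the Dox wells, for 6 hours (DMSO2_6) or 24 hours (DMSO2_24). All cultures, controls included, were held in plating medium and then serum starved overnight before exposure. The remaining libraries hold 5-fluorouracil (5FU) with its own 1% DMSO control (DMSO1) and acetaminophen (Ace), which shares the DMSO2 control with Dox. Cells from the hearts of 3 litters were mixed and then plated. The 7 libraries of each group thus stand for sister cultures of 1 cell pool, and every p-value measures the spread between such cultures and not between animals. A 24-hour culture had also been kept in the dish longer than a 6-hour culture, which is why each Dox group was read against the DMSO2 group of its own time.

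Doxorubicin is an anthracycline used against many cancers, and damage to the heart muscle limits its use. It intercalates into DNA, traps topoisomerase II on broken DNA strands and displaces histones from chromatin. Cells with broken DNA activate the transcription factor p53, whose target genes halt the cell cycle, repair DNA or start apoptosis. Cardiomyocytes depend on a dense array of sarcomeres, on calcium release and reuptake at each beat, and on mitochondria, which burn mainly fatty acids in the adult heart.

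The 28 libraries held between 15921229 and 25738297 counts, with a median of 18604834. One library of Dox_24 had the highest total, and the next highest in its group had 17856544. That library, library 7, also stood apart from its group, with a gap to its nearest neighbour past Dixon's 95% critical value, for 8.02% of the 13086 genes with a mean of at least 1 CPM (counts scaled to a common library size). Libraries 4 and 7 of Dox_6 stood apart for 4.68% and 2.24% of these genes and library 5 of DMSO2_24 for 3.06%, against at most 1.51% for the other 24 libraries. Library 7 was at least 1 log2 unit below the median of its 6 companions for 127 genes in Dox_6 and for 153 genes in Dox_24, and 33 genes were in both sets. Among genes in which library 7 was far from its group, Xirp2, Actc1, Nppb, Enah and Acta2 are given below with and without the 2 libraries so numbered. Without library 7 of Dox_24 alone, the difference was -2.27 for Cpt1b and 1.56 for Pdk4. Without all 4 libraries, genes in which library 4 of Dox_6 was the highest kept differences near those given below, with 2.55 for Arhgef15, 2.65 for Klf6, -1.49 for Dlat, -2.18 for Cpt1b, 3.34 for Srxn1 and 2.97 for Hmox1. Those of Trim50, Plin5 and Slc2a4 were smaller, at -3.48, -2.53 and -1.26 against -4.37, -3.11 and -1.66 with all libraries.

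A gene was called where edgeR's quasi-likelihood test gave a Benjamini-Hochberg FDR below 0.01 when the effect at 24 hours was tested against that at 6 hours. The effect then moved up where the difference was positive and moved down where it was negative. Values are log2 differences ± SE, where SE is the absolute difference divided by the square root of the test's F statistic. It was thus derived from the test and not estimated separately. The test called 9424 of 14554 genes, which is 64.8%. The effect moved up for 4946 genes (34.0%) and down for 4478 (30.8%). Counts of members that moved in each gene list below are to be read against these shares. For scale, the effect itself passed the same threshold for 64.2% of genes at 6 hours, 31.5% upward and 32.7% downward, and for 81.4% at 24 hours, 40.4% upward and 41.0% downward. Without the 4 libraries that stood apart, 9099 genes were called, of which 8870 were among the 9424, none with the opposite direction. Just inside the threshold were Zc3h4, with a difference of 0.27, and Zcchc17, with -0.19. Rubcn, with -0.35, and Mrps14, with 0.25, were just outside it. The median difference over all genes was 0.07, and it was 0.27 when libraries were scaled by their totals alone, so that small shifts of a whole gene group must be read against that offset. The share of called genes whose effect moved up was 52.5%, and 64.8% with scaling by totals alone.

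Most called genes had an effect that became larger in the direction it already had or that appeared after 6 hours. The effect grew upward for 1963 genes (13.5%), from a median of 0.60 at 6 hours to 1.48 at 24 hours, and downward for 1805 genes (12.4%), from -0.57 to -1.57. It was late, past the threshold at 24 hours and not at 6 hours, for 1485 genes (10.2%) upward and 1571 (10.8%) downward. The effect reversed for 1209 genes (8.31%), which passed the threshold at both times in opposite directions. Among these, 592 (4.07%) went from a median of -0.45 to 0.56 and 617 (4.24%) from 0.29 to -0.49, and with scaling by totals alone the numbers were 988 and 192. Fewer genes lost an effect than had one that grew or came late. It faded to a smaller value of the same sign for 358 lowered (2.46%) and 61 raised genes (0.419%), and it was transient, past the threshold at 6 hours and not at 24 hours, for 518 lowered (3.56%) and 386 raised genes (2.65%). The other 68 called genes (0.467%) passed the threshold at neither time.

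**Figure D1:**
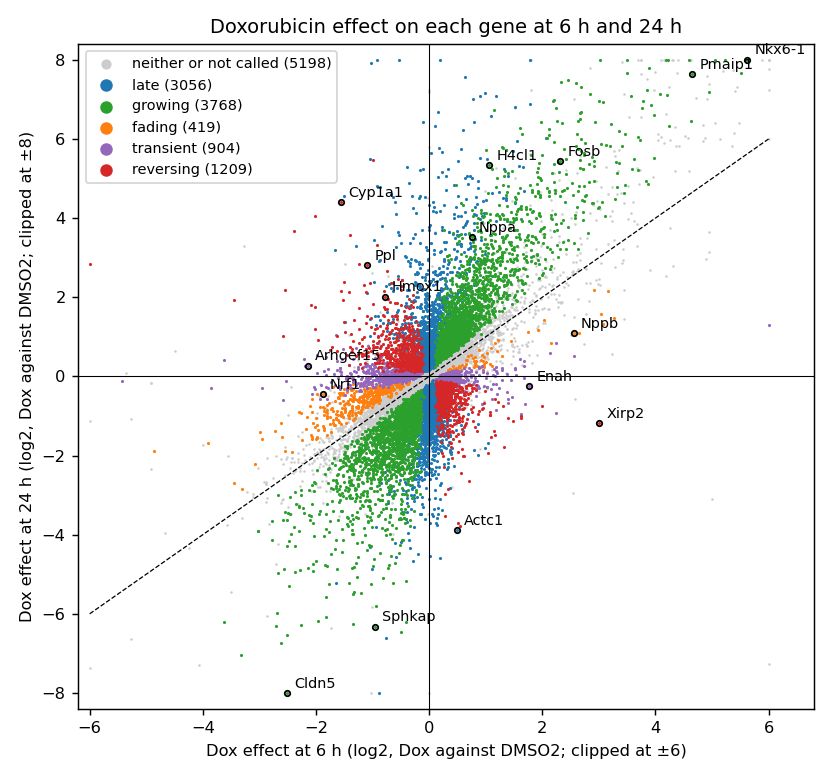
Dox effect at 24 hours (y axis, log2 of Dox over DMSO2) against the effect at 6 hours (x axis, same unit), 1 point per gene, coloured by how the effect changed, with values beyond 6 and 8 drawn at the edge. Points on the diagonal have the same effect at both times. Called genes lie off the diagonal, with the 592 and 617 reversing genes in the upper left and lower right.

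The difference has 2 arms, the change from 6 to 24 hours in the Dox cultures and the same change in the DMSO2 cultures. From 6 to 24 hours, 10985 genes (75.5%) changed in Dox, 40.6% upward and 34.9% downward, and 7651 (52.6%) in DMSO2, 27.0% upward and 25.5% downward. Of the 9424 called genes, 3988 changed in the Dox cultures and did not pass the test in DMSO2, 2291 of them upward. For 2034 genes the arms changed in opposite directions and for 2179 in the same direction by unequal amounts. For 1116 genes the change passed the test in DMSO2 alone, so that their Dox effect moved while the level in Dox cultures did not pass the test of change. The remaining 107 passed in neither arm.

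Levels below are CPM, given as the median of 7 libraries with the lowest and highest in parentheses, and changes called the largest are so among called genes with a mean of at least 100 counts. Cyp1a1, a cytochrome P450 of the aryl hydrocarbon receptor pathway, had the largest reversal. In DMSO2 it went from 11.03 CPM (9.31 to 13.7) at 6 hours to 0.495 (0.466 to 1.34) at 24 hours. In Dox it went from 3.66 (2.74 to 5.11) to 14.2 (12.2 to 16.4). All Dox libraries lay below all DMSO2 libraries at 6 hours and above them at 24 hours, and both arms moved, in opposite directions. The effect went from -1.55 to 4.40, a difference of 5.95 ± 0.242 (FDR 2.78e-31).

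Ppl encodes periplakin, a linker of the cytoskeleton to cell junctions, and behaved alike. It went from 58.1 CPM (45.5 to 64.1) to 10.8 (8.18 to 11.7) in DMSO2 and from 26.9 (22.6 to 29.4) to 68.6 (58.2 to 102) in Dox. Here too the order of the groups switched with no overlap, and the difference was 3.90 ± 0.149 (FDR 1.25e-32). The other upward reversals with the largest differences were Pcdh17, a protocadherin, from -1.51 to 1.93, and P2ry6, a receptor for uridine nucleotides, from -1.05 to 2.36.

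Downward, the largest reversals were in genes of the muscle cell. Myom2, a protein of the sarcomere's M-band, went from 26.3 CPM (23.2 to 33.3) to 160.3 (153 to 181) in DMSO2 and from 40.4 (32.03 to 44.8) to 10.9 (9.74 to 18.9) in Dox. The Dox libraries were mostly above the controls at 6 hours, with some overlap, and all far below them at 24 hours. The difference was -4.33 ± 0.197 (FDR 6.72e-29), and the arms moved in opposite directions, by 2.59 in DMSO2 and -1.74 in Dox.

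Xirp2, an actin-binding protein of the intercalated disc, changed in the Dox cultures. It was at 82.8 CPM (65.6 to 111) in DMSO2_6 and 128 (104 to 151) in DMSO2_24. In Dox it went from 787 (106 to 886) to 60.8 (23.0 to 74.5). Library 7 was the lowest in both Dox groups, within the controls at 6 hours, while the other Dox_6 libraries were far above them. The effect went from 3.001 to -1.18, a difference of -4.18 ± 0.43 (FDR 2.71e-13), and the difference was -4.23 without the 2 libraries numbered 7. Yipf7, of a family of Golgi membrane proteins, went from 0.52 to -3.71 and Akap6, which anchors protein kinase A at the nuclear envelope and sarcoplasmic reticulum of muscle, from 0.28 to -3.53.

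**Figure D2:**
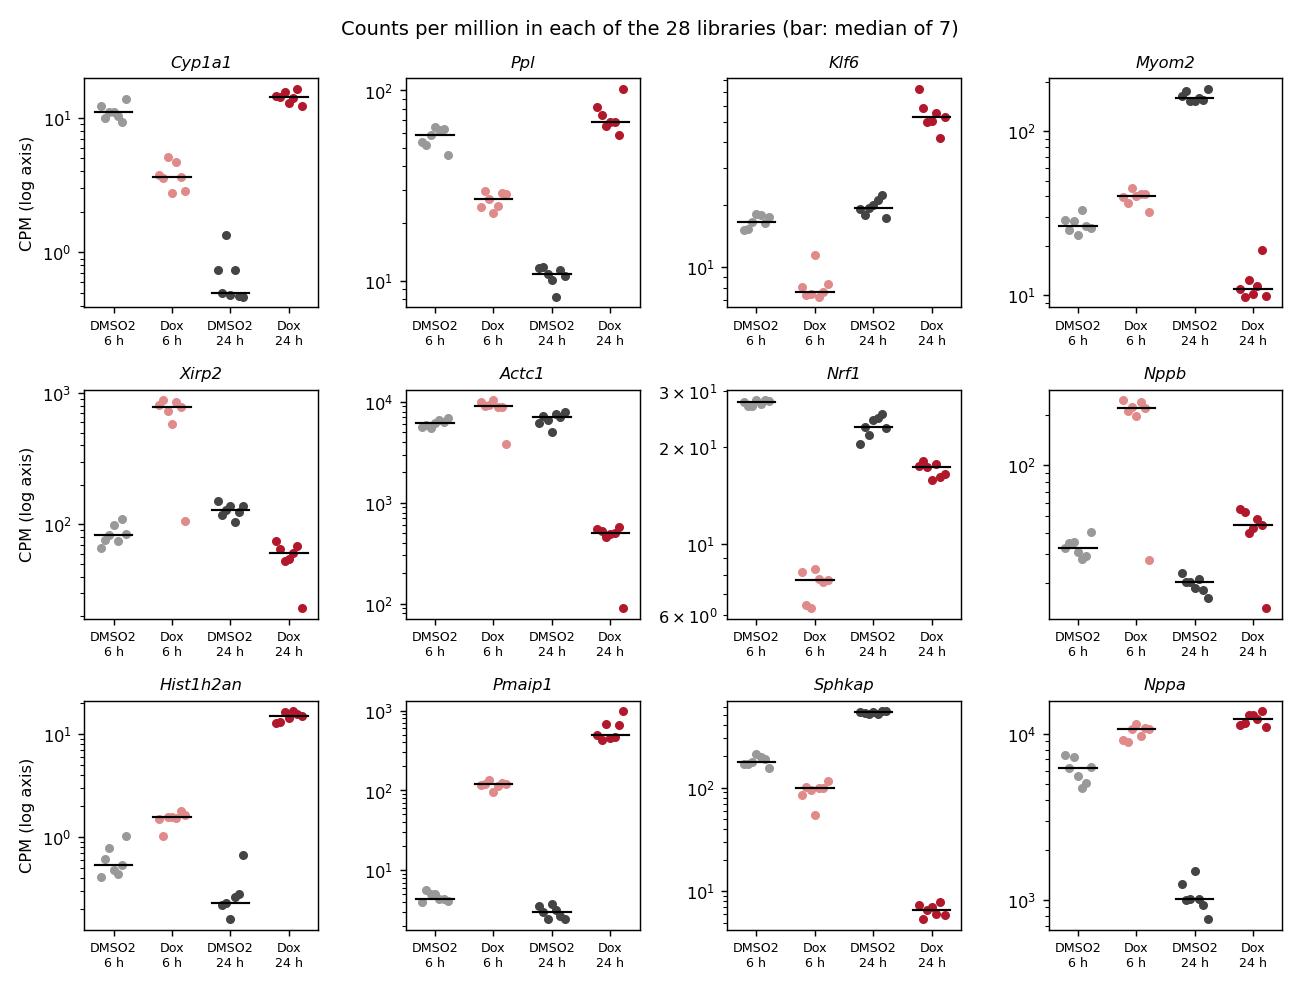
CPM (log axis) of 12 genes in each of the 28 libraries, with 1 point per library and a line at each group's median. The DMSO2_24 library with 0 counts of Hist1h2an is not drawn. Cyp1a1, Ppl and Klf6 show Dox below DMSO2 at 6 hours and above it at 24 hours, and Myom2, Xirp2 and Actc1 show the Dox libraries falling below DMSO2 at 24 hours.

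Besides Cyp1a1, the largest gains included genes at very low levels in the controls. Ctnnd2, a catenin best known from neurons, was at 0.157 CPM (0.104 to 0.541) in DMSO2_6, 0.501 (0.163 to 0.933) in Dox_6 and 0.220 (0 to 0.319) in DMSO2_24, and at 27.0 (20.1 to 33.2) in Dox_24. All Dox_24 libraries lay above all others, while the groups overlapped at 6 hours. The difference was 6.18 ± 0.575 (FDR 6.53e-15).

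Nkx6-1, a homeobox factor of pancreas and nervous system, had at most 1 count in any DMSO2_6 library and 2 in any DMSO2_24 library. In Dox it went from 1.37 CPM (0.764 to 1.74) to 85.8 (45.3 to 114), so that against a floor of 3 counts per library it was at least 9.21-fold above the control in the early cultures and at least 476-fold higher in the late ones. Its change within Dox was 5.81 (FDR 7.18e-37), while the difference between effects, which leans on controls near 0, had an FDR of 0.00632 and was lost without DMSO2_6 library 1, 2 or 3. Bhlhe23, another factor of nerve cells, was at least 331-fold above its control at 24 hours, and went from 3.45 CPM (2.19 to 4.40) to 54.3 (44.7 to 62.5) in Dox. Other large gains were in St14, a membrane serine protease (1.01 to 5.73), Sel1l3 (2.21 to 6.98), Nptx2, a neuronal pentraxin (2.68 to 7.32), and LOC103690190 (2.45 to 7.49).

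Among late gains, Tmeff2, Adap1 and Hr, a corepressor of nuclear receptors, had the largest differences after Ctnnd2. They went from -0.59 to 3.27, from -0.24 to 3.59 and from -0.28 to 3.50. Hr moved with a fall of 2.71 log2 units in the DMSO2 arm, whereas the DMSO2 change of Adap1 did not pass the test.

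The largest losses were also in genes that the controls kept or raised. Cldn5, the main claudin of endothelial tight junctions, went from 11.01 CPM (9.91 to 11.6) to 24.3 (19.5 to 33.7) in DMSO2. In Dox it went from 1.38 (0.978 to 3.29) to 0 (0 to 0.173), with at most 3 counts in any library, and was at least 160-fold lower than the control at 24 hours. Sphkap, which anchors protein kinase A and is abundant in heart, went from 176 CPM (155 to 210.4) to 535 (509 to 547) in DMSO2 and from 100.1 (54.9 to 116) to 6.63 (5.38 to 7.97) in Dox. Dox lay below DMSO2 at both times without overlap for both genes, and the arms moved in opposite directions. The differences were -6.93 ± 0.743 (FDR 1.1e-12) and -5.36 ± 0.147 (FDR 3.51e-40). Atp6ap1l (-0.41 to -6.22), the sarcomeric F-box protein Fbxl22 (-0.94 to -5.79), the secreted phospholipase Pla2g5 (-0.41 to -5.17) and Islr (-0.64 to -5.23) followed. Reg3b, a secreted lectin, went from 0.18 to -4.58, Trim50 from -0.29 to -4.66 and Dgkb, a diacylglycerol kinase, from -0.59 to -4.57, all without an effect past the threshold at 6 hours.

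The genes whose effect faded had been lowered at 6 hours in most cases. Nrf1, a transcription factor for nuclear genes of the respiratory chain, was at 27.6 CPM (26.8 to 28.1) in DMSO2_6 and 7.70 (6.30 to 8.34) in Dox_6. At 24 hours it was at 23.1 (20.5 to 25.5) in DMSO2 and 17.3 (15.8 to 18.1) in Dox. Dox lay below DMSO2 at both times without overlap, with a narrower gap at 24 hours, since the level in Dox rose by 1.19. The effect went from -1.88 to -0.45, a difference of 1.43 ± 0.0794 (FDR 1.19e-24). Ccdc88c, a regulator of Wnt signaling, faded from -1.98 to -0.45, the thyroid hormone receptor Thrb from -1.69 to -0.27 and Npr3, the clearance receptor for natriuretic peptides, from -1.83 to -0.45. For Ccdc88c the libraries of Dox_6 held 8.96 CPM (7.33 to 11.97) against 36.5 (30.6 to 44.6) in DMSO2_6, and those of Dox_24 held 22.3 (20.3 to 25.6) against 31.1 (26.3 to 33.5).

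Fading increases were few. Nppb, which encodes brain natriuretic peptide, was at 32.6 CPM (28.02 to 40.2) in DMSO2_6 and 218 (27.4 to 244) in Dox_6, and at 20.4 (16.4 to 23.1) and 44.3 (14.2 to 55.0) at 24 hours. Library 7 was below every control library in both Dox groups, so that the groups overlapped at both times, and the other Dox libraries were above them. The difference was -1.46 ± 0.454 (FDR 0.00341), and -1.50 without the 2 libraries numbered 7. It was not called when libraries were scaled by their totals alone. Ifit1bl, an interferon-induced gene, went from 3.16 to 2.15 and was not called with that scaling or without Dox_24 library 7, while Afg2b, an ATPase of ribosome maturation, went from 1.12 to 0.25 and Cstf3, a subunit of the cleavage stimulation factor, from 1.29 to 0.51.

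Effects that were present at 6 hours and not past the threshold at 24 hours included genes of the actin cytoskeleton. Enah, an actin regulator of the Ena/VASP family, was at 148 CPM (135 to 154) in DMSO2_6 and 563 (123 to 647) in Dox_6, against 149.6 (119.5 to 164) and 119 (111 to 135) at 24 hours. Acta2, smooth muscle actin, was at 413 (383 to 561) and 1492 (452 to 1725) at 6 hours and at 304 (233 to 325) and 312 (59.3 to 390.4) at 24 hours. In Dox_6 library 7 was the lowest for both genes, below every control library for Enah and within their range for Acta2, and the other libraries lay above the controls. The differences were -2.03 ± 0.289 (FDR 6.72e-09) for Enah and -1.72 ± 0.356 (FDR 2.17e-05) for Acta2, and -2.19 and -1.69 without the 2 libraries numbered 7. Steap4, a metalloreductase, went from 1.38 to 0.06, with a change in the DMSO2 arm of 1.40, and Adprhl1, a sarcomere-associated protein of cardiac muscle, from 1.13 to -0.18.

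In the other direction, Arhgef15, a guanine nucleotide exchange factor of endothelial cells, was at 8.42 CPM (6.85 to 10.5) in DMSO2_6 and 1.59 (1.29 to 3.51) in Dox_6. At 24 hours it was at 8.08 (6.22 to 8.99) in DMSO2 and 8.74 (7.59 to 11.5) in Dox. The groups were apart at 6 hours and overlapped at 24 hours, a difference of 2.41 ± 0.216 (FDR 1.55e-15). The effect on Osgin1, an oxidative stress response gene, went from -1.98 to 0.07, that on the arrestin-domain gene Arrdc4 from -1.54 to 0.45 and that on the kinesin Kif26b from -1.86 to 0.13. Of the 68 genes called with neither single effect past the threshold, the largest differences were 0.69 for Slitrk5 and 0.63 for Sgo2 upward and -0.61 for Slc7a8 and -0.59 for Rab12 downward. With scaling by totals alone Slc7a8 and Rab12 were not called.

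Most genes of the p53 pathway gained expression under Dox between the times. Of 29 such genes, most of them p53 targets, the effect moved up for 23, against 34.0% of all genes. It moved down for Perp, an apoptosis-associated membrane protein (-0.89). Without library 3 of DMSO2_6, 4 of Dox_6 or 3 or 7 of Dox_24, 2 were down in place of 1. The effect had grown for 16 of the 29. The median difference was 0.90, with medians of 0.80 at 6 hours and 1.64 at 24 hours. Pmaip1, which encodes the pro-apoptotic BH3-only protein Noxa, went from 4.42 CPM (4.04 to 5.61) to 3.03 (2.43 to 3.80) in DMSO2. In Dox it went from 119 (95.7 to 134) to 496 (426 to 985). The 2 Dox groups lay apart from each other and from the controls, and the difference was 2.98 ± 0.249 (FDR 9.78e-17).

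Mdm2, the ubiquitin ligase that removes p53, was at 62.1 CPM (59.2 to 63.5) and 119 (90.0 to 132) in DMSO2_6 and Dox_6, and at 53.1 (49.8 to 56.9) and 369 (308 to 412) at 24 hours. Its difference was 1.91 ± 0.204 (FDR 1.03e-12), and all Dox libraries were above the controls at both times. Tigar, a regulator of glycolysis, moved up by 1.92 and Plk2, a stress-responsive kinase, by 1.46. Cdkn1a, which encodes the cell cycle inhibitor p21, was at 143 (134 to 155) and 812 (601 to 909) at 6 hours and at 104 (93.4 to 116) and 1080.2 (908 to 1407) at 24 hours. Its 2 Dox groups overlapped slightly and the change within Dox, 0.52, did not pass the test. The effect was 2.46 at 6 hours and 3.44 at 24 hours. The difference was 0.98 ± 0.303 (FDR 0.00331). Ccng1, Sesn1, Ddb2, Eda2r and Cdkn2a were not called.

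The Bcl2 family, which holds promoters and inhibitors of apoptosis, was divided. Of 16 members the effect moved up for 9 and down for 3. Bid, a BH3-only protein that links death receptors to mitochondria, had a difference of 2.63 ± 0.114 (FDR 6.14e-30). It was at 13.7 CPM (13.1 to 14.5) and 13.0 (11.1 to 15.3) at 6 hours, with overlap, and at 8.48 (7.61 to 10.2) and 48.1 (40.4 to 64.9) at 24 hours, without. Bmf, another pro-apoptotic member, reversed from -0.97 to 1.204, and the inhibitor Bcl2l1 moved up by 1.52. The inhibitors Bcl2 and Bcl2a1 moved down, by -0.75 and -0.82, as did pro-apoptotic Bak1 by -0.23. Bcl2a1 lost its call without DMSO2_24 library 7, and Bak1 without library 1, 5 or 6 of DMSO2_6 or 2, 3, 6 or 7 of Dox_24, and both with scaling by totals alone.

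Histone genes had the largest median difference of the 37 gene lists examined, 2.62. Replication-dependent histone genes are expressed in S phase, and their messages normally lack a polyA tail, so that libraries of polyA RNA hold only a small share of them; many are near-identical copies between which the assignment of reads is uncertain. The effect moved up for 26 of 33 histone genes, of which 21 had grown, and down for H2az2 and H3f3a, which encode replacement histones. H1f2, H1f4, H1f5, H1f6 and H3f3c were not called. Of the 33, 7 had at most 3 counts per library in some group, and without them the median was 2.25.

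Hist1h2an was at 0.545 CPM (0.410 to 1.04) in DMSO2_6, 1.57 (1.04 to 1.80) in Dox_6, 0.233 (0 to 0.673) in DMSO2_24 and 15.0 (12.9 to 16.7) in Dox_24. All Dox_24 libraries lay above all other libraries, and the groups overlapped at 6 hours. The difference was 4.46 ± 0.345 (FDR 3.86e-18). H2bc9, with at most 3 counts in any DMSO2_24 library, was at least 35.9-fold higher in Dox_24 than in its control and reached 5.83 CPM (4.80 to 7.18). H2ac1 had a difference of 5.09 ± 1.35 (FDR 0.000662) and lost its call without DMSO2_6 library 1, and Hist1h2bd had 4.69 ± 0.543. H2az2, a histone H2A.Z gene whose message is polyadenylated, was at 68.2 (64.2 to 76.3) in DMSO2_24 and 35.8 (33.9 to 39.0) in Dox_24, while the groups overlapped at 6 hours. Its difference was -1.01 ± 0.0744 (FDR 4.54e-19).

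The promoters of these genes are shown since the histone genes moved together and H2az2 did not. Each line gives 250 bases before to 50 after the start of the gene in RefSeq's rat assembly GRCr8, 5′ to 3′ on the gene's strand. Capitals mark the CCAAT box, searched as CCAAT, and the TATA box, searched as TATAAA, each on both strands, so that ATTGG and TTTATA are the same letters on the other strand. H2ac1 is at chr17:41599623-41599922 on the minus strand, H2bc9 at chr17:47174320-47174619 on the minus strand, Hist1h2an at chr17:41962441-41962740 on the plus strand and H2az2 at chr14:85526019-85526318 on the minus strand. The window of H2ac1 overlaps that of H2bc1 on the other strand.
H2ac1: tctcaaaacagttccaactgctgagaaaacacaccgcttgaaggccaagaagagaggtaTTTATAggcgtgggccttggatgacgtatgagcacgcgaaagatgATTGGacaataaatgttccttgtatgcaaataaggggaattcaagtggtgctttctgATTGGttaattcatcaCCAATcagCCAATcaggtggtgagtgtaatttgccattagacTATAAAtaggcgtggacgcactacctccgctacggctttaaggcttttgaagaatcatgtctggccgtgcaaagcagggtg
H2bc9: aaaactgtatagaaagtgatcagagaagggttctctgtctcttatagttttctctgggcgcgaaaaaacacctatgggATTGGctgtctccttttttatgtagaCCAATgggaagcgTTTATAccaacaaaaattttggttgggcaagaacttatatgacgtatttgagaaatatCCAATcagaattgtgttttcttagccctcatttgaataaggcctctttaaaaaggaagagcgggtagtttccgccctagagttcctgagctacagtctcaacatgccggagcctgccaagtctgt
Hist1h2an: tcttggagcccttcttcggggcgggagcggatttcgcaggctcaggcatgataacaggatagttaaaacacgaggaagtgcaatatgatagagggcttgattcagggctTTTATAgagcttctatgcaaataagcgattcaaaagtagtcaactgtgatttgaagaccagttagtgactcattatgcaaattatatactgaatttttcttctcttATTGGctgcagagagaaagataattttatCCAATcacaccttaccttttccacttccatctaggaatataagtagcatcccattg
H2az2: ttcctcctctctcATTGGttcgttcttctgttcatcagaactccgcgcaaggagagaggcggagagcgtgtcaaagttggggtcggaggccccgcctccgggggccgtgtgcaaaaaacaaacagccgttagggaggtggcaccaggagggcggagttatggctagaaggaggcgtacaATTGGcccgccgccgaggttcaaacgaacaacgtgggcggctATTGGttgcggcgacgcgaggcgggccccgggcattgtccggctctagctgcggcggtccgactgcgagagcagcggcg
The first 3 windows hold both motifs when either strand is counted, and that of H2az2 holds 3 CCAAT boxes and no TATAAA. H2ac1 holds TATAAA on its own strand, at bases 220 to 225. H2bc9 and Hist1h2an hold it only as TTTATA, on the other strand, at bases 118 to 123 and 110 to 115. The start of the gene follows base 250. Of 31 histone promoters in the reference, 96.8% held CCAAT and 67.7% held TATAAA on either strand. The shares were 37.0% and 7.28% of 11403 promoters of genes in the table. TATAAA was in 76.0% of the 25 whose effect moved up and in neither of the 2 whose effect moved down, while both of those held CCAAT. These are matches of letters, and binding was not measured.

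Genes of the dividing cell moved up too, for a different pattern in the arms. Of 39 genes of G2/M and mitosis, the effect moved up for 23 and down for 3, and the median difference was 0.58. In the DMSO2 cultures 35 of the 39 fell from 6 to 24 hours, with a median change of -1.02, and in Dox 23 fell and 7 rose, with a median of -0.50. Prc1, which bundles microtubules of the central spindle, was at 49.3 CPM (45.1 to 53.7) and 27.0 (22.9 to 31.8) in DMSO2 and at 73.7 (57.8 to 80.7) and 133 (118 to 139.6) in Dox. Its arms moved in opposite directions without overlap, and the difference was 1.73 ± 0.141 (FDR 2.81e-17). The kinesin Kif11 (1.59), Pttg1, which encodes securin (1.503), and the phosphatase Cdc25b (1.5005) followed.

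Cdk1, the kinase that drives entry into mitosis, went the other way. It was at 35.9 CPM (33.4 to 40.4) and 16.0 (13.6 to 17.8) in DMSO2 and at 22.6 (19.5 to 25.6) and 4.87 (3.96 to 6.69) in Dox. The groups did not overlap at either time, and Dox fell further than DMSO2, for a difference of -1.02 ± 0.131 (FDR 3.63e-10). Top2a, which encodes topoisomerase II alpha, a target of the drug, was at 90.7 (80.9 to 98.0) and 36.7 (30.6 to 41.4) in DMSO2 and at 55.4 (45.6 to 60.9) and 15.6 (13.4 to 21.5) in Dox. It was lower in Dox at both times, and its difference of -0.43 ± 0.14 (FDR 0.00468) was lost without library 1, 2, 4 or 7 of Dox_24 and with scaling by totals alone. Of 5 topoisomerase genes 2 moved up, 2 moved down and 1 was not called. Besides Top2a, Top1mt, the mitochondrial enzyme, moved up by 0.89, Top3a by 0.32 and Top1 down by -0.30, the latter from 0.50 to 0.20. Top3a was not called without the 2 libraries numbered 7, nor Top1 with scaling by totals alone.

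The promoters of 4 cell cycle genes are given to set genes that moved up beside genes that moved down. Capitals mark CCAAT and the cell cycle genes homology region (CHR), searched as TTTGAA, on both strands. Prc1 is at chr1:143659231-143659530 on the plus strand and Pttg1 at chr10:28406277-28406576 on the minus strand. Cdk1 is at chr20:19265043-19265342 on the plus strand and Top2a at chr10:84473044-84473343 on the minus strand.
Prc1: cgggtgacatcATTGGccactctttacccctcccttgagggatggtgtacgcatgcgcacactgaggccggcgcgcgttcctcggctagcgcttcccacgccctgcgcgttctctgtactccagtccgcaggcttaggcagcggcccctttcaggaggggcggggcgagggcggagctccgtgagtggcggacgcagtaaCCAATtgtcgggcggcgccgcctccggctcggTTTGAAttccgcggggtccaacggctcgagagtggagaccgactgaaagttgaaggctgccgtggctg
Pttg1: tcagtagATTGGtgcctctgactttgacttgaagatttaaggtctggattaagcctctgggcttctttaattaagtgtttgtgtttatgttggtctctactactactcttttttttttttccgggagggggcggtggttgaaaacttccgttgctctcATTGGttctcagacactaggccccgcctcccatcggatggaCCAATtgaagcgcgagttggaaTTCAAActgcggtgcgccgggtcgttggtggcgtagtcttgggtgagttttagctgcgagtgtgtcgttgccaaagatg
Cdk1: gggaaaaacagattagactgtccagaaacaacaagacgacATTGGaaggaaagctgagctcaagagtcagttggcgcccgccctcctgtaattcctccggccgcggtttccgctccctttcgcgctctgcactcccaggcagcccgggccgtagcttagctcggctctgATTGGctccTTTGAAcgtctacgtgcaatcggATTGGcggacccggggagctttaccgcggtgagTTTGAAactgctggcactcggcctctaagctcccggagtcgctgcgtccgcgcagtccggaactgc
Top2a: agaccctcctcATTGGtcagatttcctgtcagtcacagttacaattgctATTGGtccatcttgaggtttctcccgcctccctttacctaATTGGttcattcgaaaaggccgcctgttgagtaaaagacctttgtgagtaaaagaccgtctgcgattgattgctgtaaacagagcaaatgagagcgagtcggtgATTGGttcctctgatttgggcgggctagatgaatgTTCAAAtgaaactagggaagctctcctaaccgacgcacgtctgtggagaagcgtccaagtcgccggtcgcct
All 4 hold both motifs. CHR letters were in 76.5% and CCAAT in 70.6% of 34 promoters of the G2/M list, against 11.7% and 37.0% of all 11403. Among the 19 that moved up each motif was in 78.9%, and among the 3 that moved down in 66.7%, so that the letters did not separate these groups.

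Genes of DNA replication, a list of 46, were divided, with 21 up and 10 down. E2f1, a transcription factor of S phase entry, was at 16.8 CPM (14.4 to 19.7) and 50.4 (42.8 to 56.1) at 6 hours and 9.08 (7.86 to 10.8) and 120.1 (90.3 to 125) at 24 hours in DMSO2 and Dox. Dox was above DMSO2 at both times, and the arms moved apart for a difference of 2.01 ± 0.154 (FDR 2.48e-18). The clamp loader subunit Rfc5 (1.45), the polymerase gene Pole (1.43) and Ccne2, a cyclin of S phase entry (1.39), moved up. Mcm2 of the replicative helicase (-1.26), Rrm1 of ribonucleotide reductase (-1.18), Gins1 (-1.17) and the polymerase gene Pold1 (-1.10) moved down. Of 46 genes of double-strand break and Fanconi repair, 17 moved up, with Brca1 at 2.02 and Fancg at 1.74, and 11 moved down, with Fancl at -1.90 and Xrcc2 at -1.33.

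Immediate early genes, which respond within minutes to signals and stress, moved up at 24 hours. The effect moved up for 34 of 40 and down for Sgk1, a serum and glucocorticoid regulated kinase (-0.68). The median effect was 0.15 at 6 hours and 1.38 at 24 hours, and 39 of the 40 rose from 6 to 24 hours in the Dox cultures against 16 in DMSO2. Fosb, a subunit of the AP-1 transcription factor, was at 1.62 CPM (1.43 to 1.88) and 7.01 (6.31 to 10.4) at 6 hours in DMSO2 and Dox, and at 1.14 (0.881 to 1.45) and 47.9 (18.0 to 89.4) at 24 hours. Its difference was 3.11 ± 0.398 (FDR 3.24e-10), and the Dox_24 libraries varied widely but all lay above the other groups. Arc, a regulator of synaptic receptors, moved up by 2.95, the orphan receptor Nr4a1 by 2.72 and Id1, a repressor of helix-loop-helix factors, by 2.59.

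Klf6, a zinc finger factor induced by injury, reversed. It was at 16.5 CPM (15.2 to 18.1) in DMSO2_6 and 7.62 (7.20 to 11.5) in Dox_6, and at 19.4 (17.2 to 22.2) and 53.2 (41.9 to 72.4) at 24 hours. The order of the groups switched with no overlap, for a difference of 2.50 ± 0.12 (FDR 1e-27). Jun, Ier3, Ier5l, Dusp1 and Dusp6 reversed in the same direction. The CArG box, the site of serum response factor, was matched in 17.2% of 29 immediate early promoters and the cAMP response element TGACGTCA in 13.8%, against 1.25% and 2.96% of all promoters. The CArG box was also matched in 15.6% of 32 promoters of the sarcomere list below, most of whose members moved down. It was in 1.01% of 1584 promoters of genes whose effect grew upward, so the letters did not go with 1 direction.

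Genes of the sarcomere moved down. Of 40, the effect moved down for 31, against 30.8% of all genes, and up for 2, with a median of -1.34. The median effect was 0.36 at 6 hours, with 22 members past the threshold upward, and -1.19 at 24 hours, with 32 downward. The effect reversed for 14 members, among them Myh7, the troponins Tnnt2, Tnnc1 and Tnni1, Tpm1, Mybpc3 and Actn2. Without the 4 libraries that stood apart, the median was -1.47, with 31 members down and 2 up.

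Myh6, the alpha myosin heavy chain, was at 15176 CPM (12565 to 18543) and 11247 (9763 to 13041) at 6 hours in DMSO2 and Dox, with overlap, and at 17852 (14327 to 21397) and 1027 (896 to 1093) at 24 hours, without. Its difference was -3.66 ± 0.147 (FDR 1.31e-31). Actc1, cardiac alpha actin, was at 6222 (5471 to 6939.8) and 9046 (3791 to 10441) at 6 hours and at 7115 (4990.0 to 7891) and 504 (90.1 to 577) at 24 hours. Library 7 was lowest in both Dox groups, and the difference was -4.38 ± 0.303 (FDR 3.01e-20) with the 2 libraries numbered 7 and -4.33 without them, when the gene counted as reversing and not as late. The exceptions were Cavin4, a caveolar protein of muscle (0.90), and Cryab, a small heat shock protein that protects the Z-disc (0.88). Both fell in the Dox cultures, by less than in DMSO2.

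Calcium handling followed. The effect moved down for 19 of 28 members and up for 8. Ryr2, the release channel of the sarcoplasmic reticulum, was at 664 CPM (467 to 839) and 516 (433 to 695) at 6 hours and at 1222 (938 to 1319) and 83.4 (77.8 to 101) at 24 hours. Atp2a2, the SERCA2 pump that returns calcium, was at 3785 (3165 to 4034) and 3419 (3002 to 3690.0) and at 5252 (5023 to 5927) and 488 (434 to 509). For both the groups overlapped at 6 hours and were far apart at 24 hours, with DMSO2 rising and Dox falling. The differences were -3.44 ± 0.16 (FDR 1.91e-28) and -3.35 ± 0.0996 (FDR 2.37e-38), and Hrc, a calcium buffer of the same store, had -3.30. Camk2b, a calmodulin-dependent kinase, moved up by 2.08, Calm2, a calmodulin gene, by 1.14, the IP3 receptor Itpr2 by 1.07 and the plasma membrane pump Atp2b4 by 0.91.

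Of 28 ion channel and connexin genes 22 were lowered at 6 hours and 20 at 24 hours, with median effects of -1.10 and -1.55. The effect moved down for 11 and up for 4. Gja5, the connexin of the conduction system and atria (-4.15), and the KATP channel subunits Abcc9 (-2.56) and Abcc8 (-2.51) moved down. Hcn4, the pacemaker channel, reversed. It was at 60.02 CPM (48.5 to 62.5) and 29.7 (25.3 to 38.5) at 6 hours and at 63.3 (51.1 to 65.6) and 108 (100.3 to 113) at 24 hours, switching order without overlap, for a difference of 1.76 ± 0.146 (FDR 6.4e-17). Kcnj12 (1.74), an inward rectifier, and Cacna1h (1.29), a T-type calcium channel, also moved up.

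Cardiac transcription factors showed no common direction, with 7 of 22 up and 9 down, where 34.0% and 30.8% of all genes moved so. Hand1, a factor of early heart development, was at 5.17 CPM (4.03 to 5.70) and 3.42 (2.94 to 4.09) at 6 hours and at 4.25 (3.41 to 4.97) and 23.8 (16.9 to 27.6) at 24 hours. It went from slightly lower in Dox to higher in every library, a difference of 2.91 ± 0.169 (FDR 1.00e-23). Smyd1, a muscle methyltransferase (-2.77), Irx4, a ventricular factor (-1.64), and Mef2c (-1.51) moved down.

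Of 33 genes of natriuretic peptide and adrenergic signaling, 9 moved up and 16 down, against 34.0% and 30.8% of all genes. Nppa, which encodes atrial natriuretic peptide, showed an effect that moved with the control. It went from 6222 CPM (4729.6 to 7416) to 1017 (764 to 1494) in DMSO2 and from 10694 (8929 to 11502) to 12215 (10914 to 13688) in Dox. The Dox groups overlapped each other and their change of 0.26 did not pass the test, while DMSO2 fell by 2.51, so that the difference was 2.77 ± 0.225 (FDR 2.58e-17). The phosphodiesterase Pde5a (2.25) moved up in Dox with no change past the test in DMSO2, and the receptors Chrm2 (-2.93) and Adra1a (-2.62) moved down.

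**Figure D3:**
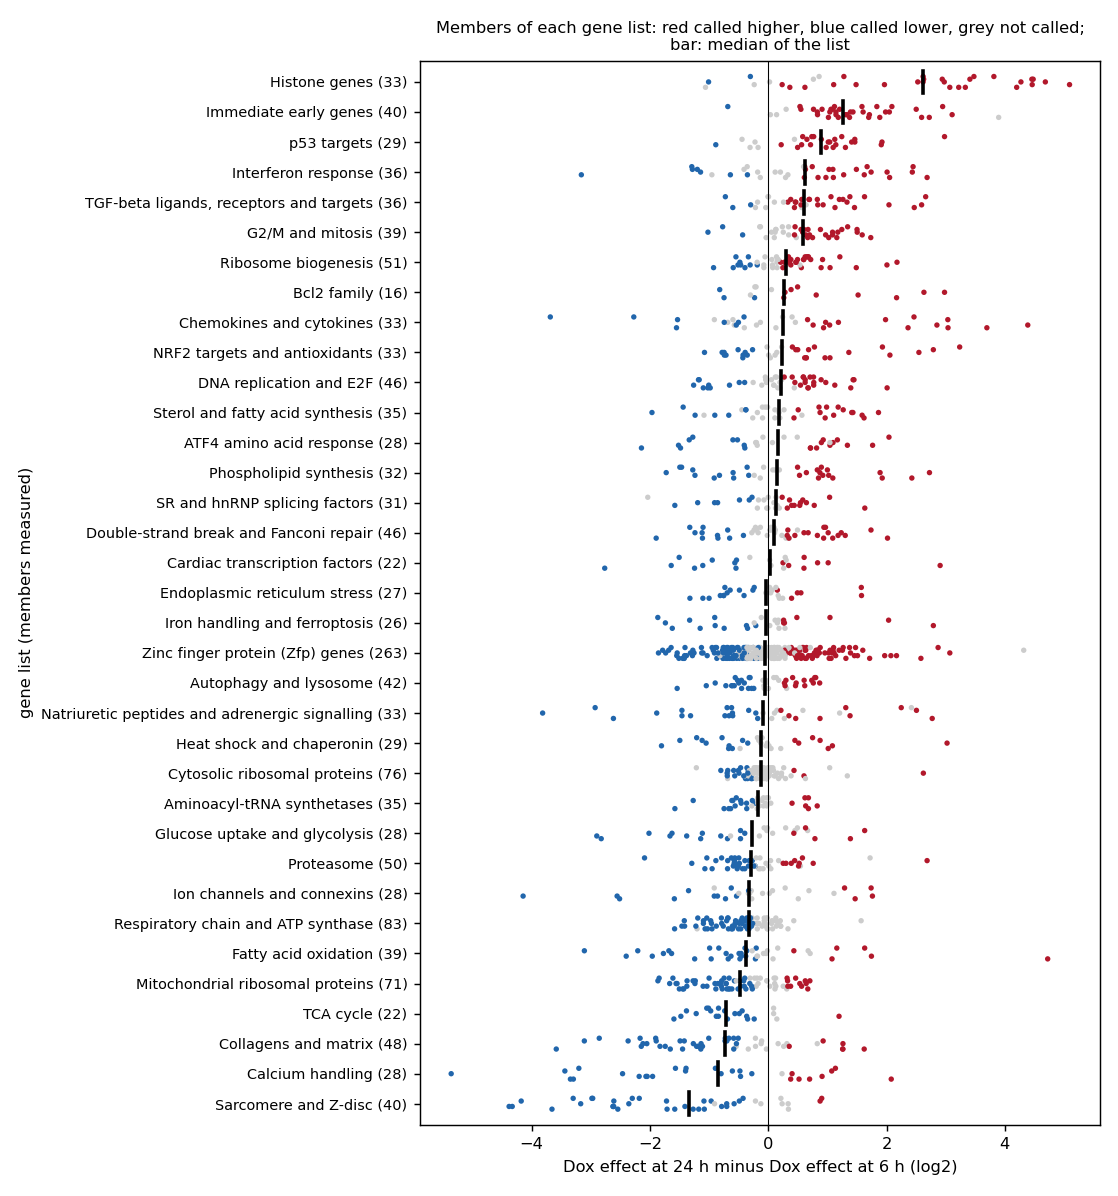
Dox effect at 24 hours minus that at 6 hours (log2) for the members of 35 gene lists with at least 10 members, 1 point per gene, coloured where called, with a line at each list's median. Histone and immediate early genes lie mostly above 0, and sarcomere, calcium handling and TCA cycle genes mostly below 0.

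For most genes of the respiratory chain a raised level at 6 hours was followed by a smaller or opposite effect. Of 83 nuclear genes of the respiratory chain and ATP synthase, the effect was raised for 76 at 6 hours, with a median of 0.36, and at 24 hours it was raised for 24 and lowered for 29, with a median of 0.01. It moved down for 49 and up for none, and of those 26 reversed and 20 were transient. With scaling by totals alone 32 moved down and 11 up, and the median was -0.13. Ndufs7, a subunit of complex I, was at 184 CPM (155 to 197) and 170.1 (158 to 201) at 6 hours, with overlap, and at 149 (136 to 157) and 47.8 (47.3 to 58.2) at 24 hours, without, a difference of -1.58 ± 0.0896 (FDR 2.77e-24). Ndufb10, another subunit, went from a raised 185 (166 to 205) against 155 (146 to 179) to 55.2 (45.9 to 61.0) against 125 (117 to 140.3), a difference of -1.46 ± 0.106 (FDR 2.74e-19). Ndufv2 (-1.42) and Ndufs8 (-1.42) followed, and all 4 belong to complex I.

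For the TCA cycle the effect moved down for 18 of 22 genes and up for Pc, pyruvate carboxylase (1.196). Dlat, a subunit of pyruvate dehydrogenase, was at 246 CPM (238 to 268) and 252 (241 to 301) at 6 hours and at 215 (204 to 224) and 74.1 (52.6 to 85.1) at 24 hours, going from overlap to none, for a difference of -1.60 ± 0.0809 (FDR 1.47e-26). Mdh1 (-1.48), Idh3a (-1.38) and Idh2 (-1.22) moved down as well. Of 39 genes of fatty acid oxidation, 23 moved down and 6 up. Cpt1b, the muscle enzyme that admits fatty acids to mitochondria, was at 212 (197 to 215) and 214 (202 to 334) at 6 hours and at 299.6 (287 to 318) and 62.3 (31.3 to 77.6) at 24 hours. Its difference was -2.40 ± 0.149 (FDR 1.89e-22), from overlap at 6 hours to Dox wholly below DMSO2. Plin5, a lipid droplet protein (-3.11), and Acsl1, an acyl-CoA synthetase (-2.21), moved down.

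Ucp3, a mitochondrial carrier, reversed from -2.55 to 2.18, and so did Pdk4, a kinase that blocks pyruvate dehydrogenase. Pdk4 was at 43.7 CPM (38.9 to 52.99) and 31.2 (27.8 to 37.0) at 6 hours and at 60.2 (53.6 to 73.5) and 123 (110.1 to 178) at 24 hours, switching order without overlap, for a difference of 1.63 ± 0.138 (FDR 1.39e-16). Of 28 genes of glucose uptake and glycolysis, 13 moved down, with Pgam2 (-2.90) and Pfkm (-2.83), the muscle forms of phosphoglycerate mutase and phosphofructokinase, first, and 5 moved up, with Pfkfb3 (1.39) and the glucose transporter Slc2a1 (0.79) besides Pdk4. Without library 4 of Dox_6 the number that moved up was 8, and the median of the list was -0.12 against -0.27 with all libraries. Slc2a4, the insulin-responsive transporter, moved down by -1.66.

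Genes of the stress responses moved in both directions within each list. Of 33 NRF2 targets and antioxidant genes, 16 moved up and 11 down. Srxn1, sulfiredoxin, was at 9.37 CPM (7.06 to 9.75) and 8.3996 (6.70 to 12.02) at 6 hours and at 2.97 (2.28 to 3.93) and 27.8 (18.0 to 36.1) at 24 hours, for a difference of 3.24 ± 0.232 (FDR 1.35e-19). Hmox1, heme oxygenase, was at 151 (146 to 164) and 81.7 (75.3 to 130.5) and at 65.1 (56.5 to 69.3) and 259.8 (153 to 378), and reversed with no overlap at either time. Nqo1, a quinone reductase, stayed between 152 and 221 in all Dox libraries while DMSO2 went from 160.2 (147 to 173) to 31.2 (24.2 to 37.8), so that its difference of 2.55 ± 0.138 (FDR 4.23e-25) lay in the control arm. Mgst1 (-1.08) and Sod3 (-0.78), extracellular superoxide dismutase, moved down.

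Of 29 heat shock and chaperonin genes 7 moved up and 11 down, with a median of -0.13 that became 0.08 when libraries were scaled by totals alone. Hspa1b, the inducible HSP70, was at 24.2 CPM (22.2 to 25.98) and 154 (96.3 to 189) at 6 hours and at 8.90 (7.86 to 10.0) and 482 (359 to 517) at 24 hours, above DMSO2 in every library at both times, with a difference of 3.02 ± 0.15 (FDR 5.97e-27). The small heat shock proteins of muscle, Hspb7 (-1.81), Hspb2 (-1.50) and Hspb3 (-1.21), moved down. Of 50 proteasome genes 28 moved down and 9 up. Psmb9, an immunoproteasome subunit, went from 9.10 (6.75 to 11.4) and 14.7 (10.2 to 18.5) at 6 hours to 6.81 (6.01 to 8.53) and 78.2 (68.3 to 91.8) at 24 hours, a difference of 2.69 ± 0.155 (FDR 7.68e-24), while its partner subunit Psmb8 moved down by -1.29.

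Among 36 interferon response genes 19 moved up and 7 down. Rsad2 (2.45), which reversed from -0.74, Gbp4 (2.44) and Isg15 (2.05), a ubiquitin-like protein, moved up with Psmb9. Ifit1 was at 0.175 CPM (0.0476 to 0.358) and 1.06 (0.118 to 1.45) at 6 hours and 0.160 (0 to 0.363) and 0.0807 (0 to 0.268) at 24 hours, a transient increase at low counts with a difference of -3.16 ± 0.803 (FDR 0.0004). Of 33 chemokines and cytokines 14 moved up and 8 down. Ptgs2, cyclooxygenase 2, was at 2.52 (1.78 to 2.75) and 2.01 (1.18 to 2.38) at 6 hours and at 1.59 (1.37 to 2.03) and 16.9 (12.1 to 23.6) at 24 hours, for a difference of 3.70 ± 0.309 (FDR 9e-17). Il6 was counted at most 2 times in any DMSO2 library and reached 0.821 (0.646 to 1.501) in Dox_24, at least 5.45-fold above its control. Lif (3.04) and Cx3cl1 (3.04) moved up and Il33 (-3.69) down.

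Of 36 TGF-beta ligands, receptors and targets, 24 moved up, with the activin antagonist Fst (2.66), the BMP antagonist Grem1 (2.47) and the stress cytokine Gdf15 (2.04), and 3 moved down, the receptors Tgfbr2, Tgfbr3 and Acvr1. Of 48 collagens and matrix genes, the effect moved down for 31 and up for 6. Aspn (-3.59), Col14a1 (-3.11), Col15a1 (-2.86) and Postn (-2.37) moved down, with levels that rose in the DMSO2 cultures for Aspn, Col14a1 and Postn and fell in Dox for all 4. Thbs1 (1.62), Adamts1 (1.26) and Timp3 (1.26), which encode secreted regulators of matrix and of proteolysis, moved up.

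**Figure D4:**
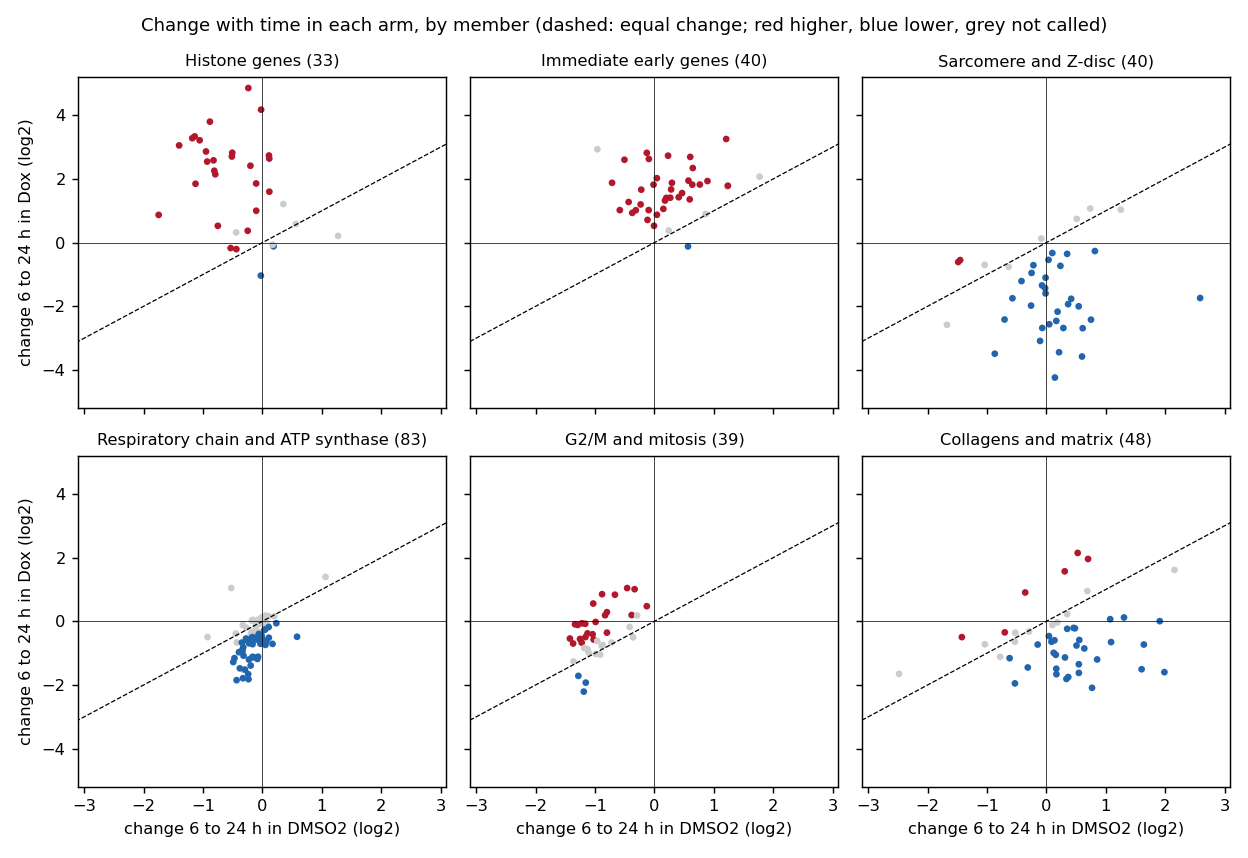
Change from 6 to 24 hours in Dox (y axis, log2) against the change in DMSO2 (x axis, log2) for the members of 6 gene lists, 1 point per gene, with the diagonal of equal change. Histone and immediate early genes lie above the diagonal by their Dox change, and G2/M genes by a fall in DMSO2 that was smaller or absent in Dox.

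Of 9 genes of RNA polymerase II subunits 4 moved up and 3 down. Polr2a, the largest subunit, was at 186 CPM (110.3 to 220.2) and 674 (513 to 829.6) at 6 hours and at 132 (95.3 to 149) and 1377 (1122 to 1433) at 24 hours. Dox was above DMSO2 in every library at both times, and the gap grew by 1.47 ± 0.213 (FDR 1.14e-08). Polr2d (0.95), Polr2b (0.53) and Polr2c (0.22) also moved up, and Polr2e (-0.67), Polr2j (-0.59) and Polr2g (-0.53) down. Of 71 mitochondrial ribosomal protein genes 43 moved down and 11 up, with Mrps16 (-1.87) and Mrpl23 (-1.85) first. Of 51 genes of ribosome biogenesis 27 moved up, with Rrp9 (2.18) and Nop16 (2.01) first, and 10 down. The 76 cytosolic ribosomal protein genes had a median of -0.13, with 18 down and 3 up, and 0.07, with 6 down and 13 up, when libraries were scaled by totals alone, so that the direction of this group turned with the scaling.

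The cultures held cells other than cardiomyocytes, and markers of these moved with the comparison. The summed level of 9 cardiomyocyte markers was between 34050.0 and 49362 CPM in DMSO2_6, Dox_6 and DMSO2_24 and between 19375 and 24118 in Dox_24. Without Nppa, the marker that moved up, the sum of the other 8 was between 28272 and 44161 in those 3 groups and between 8461 and 10429.7 in Dox_24. That of 10 fibroblast markers was between 9721 and 14496 in DMSO2_6, 7789 and 10208 in Dox_6, 15147 and 18943 in DMSO2_24 and 1941 and 4091 in Dox_24. That of 9 endothelial markers was between 259.9 and 320.1, 87.6 and 135, 295 and 393, and 26.4 and 58.8 in the same order. That of 10 macrophage markers was between 67.3 and 80.5, 73.1 and 88.5, 119 and 146, and 45.2 and 64.0. The effect moved down for 8 of 9 cardiomyocyte, 8 of 10 fibroblast, 7 of 9 endothelial and 9 of 10 macrophage markers, with medians of -2.18, -1.74, -1.13 and -1.87.

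No defining marker of cardiomyocytes or fibroblasts was at 0 in a whole group, and Cldn5 and Cd163, a macrophage receptor, had at most 3 counts per library in Dox_24. Smooth muscle and pericyte markers were divided, with Cnn1 (1.22) and Myh11 (1.11) up and 4, Rgs5 (-3.45) first, down among 9. Their sum was between 1180.3 and 1543 CPM in DMSO2_6, 1277 and 3524 in Dox_6, 1011 and 1155 in DMSO2_24 and 448 and 1768 in Dox_24. Of 3 blood markers 2 moved up, led by Slc4a1 (3.03), with sums of 18.5 to 47.1, 38.5 to 65.9, 12.3 to 18.6 and 92.5 to 126. The highest count of Slc4a1 in a library went from 188 in Dox_6 to 1548 in Dox_24. Those of the globins Hba-a1 and Hbb went from 696 to 581 and from 397 to 327 in Dox. In DMSO2 the globins went from 532 to 168 and from 369 to 110. In these bulk libraries fewer cells of a type and less RNA per cell cannot be told apart, and the part of cell composition in the matrix, endothelial and muscle gene results was not tested.

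The difference in Dox was compared with that of the other compounds, which differ from Dox in dose and are set beside it as values. The effect changed between times for 5755 genes (39.5%) with 5FU against DMSO1 and for 1694 genes (11.6%) with Ace against DMSO2. The Dox difference exceeded or fell short of the 5FU difference for 7756 genes (53.3%), 3940 upward (27.1%) and 3816 downward (26.2%). Against Ace, where the shared control cancels, it did so for 9236 genes (63.5%), 4896 upward (33.6%) and 4340 downward (29.8%).

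Immediate early genes stood out from both, with the Dox difference higher for 34 of 40 against 5FU and 35 against Ace, and lower for none. Histone genes were higher for 22 of 33 and 26 of 33 and lower for 2 in each. Their median difference was -0.47 with 5FU and 0.12 with Ace, against 2.62 with Dox. Sarcomere genes were lower for 27 and 31 of 40 and higher for 1 and 3. G2/M genes differed by compound. Their median difference was 1.67 with Ace and 0.85 with 5FU against 0.58 with Dox, and the Dox difference was lower than that of Ace for 31 of 39. Collagens and matrix genes had a median of -1.26 with 5FU, -0.41 with Ace and -0.73 with Dox. The Dox difference was higher than that of 5FU for 13 of 48 members, a share equal to the 27.1% of all genes, and lower for 5, and it was lower than that of Ace for 25.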

How the data were processed

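Gene expression was measured by RNA sequencing in 28 libraries of Dox and DMSO2 cultures at 6 and 24 hours, 7 per group, within a series of 65 libraries in 10 groups. The deposited values are estimated counts per gene in whole numbers: the authors assigned paired reads of polyA RNA to the Ensembl rat transcriptome with kallisto 0.46.0, used tximport to sum transcripts to Entrez genes, and left out those with few counts. Such counts depend on transcript models, on polyA tails and on how reads of near-identical genes are divided. The columns carry group names only, so libraries were numbered within a group in column order as labels. Between the 84 pairs of libraries of 1 group the lowest chi-square per gene was 3.61, so no library was counted as a copy. Of 14554 gene IDs, 14009 were matched to a symbol of RefSeq's rat assembly GRCr8.

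All 65 libraries were fitted together in edgeR 4.0.16 (R 4.3.3, limma 3.58.1) with TMM scaling, 1 mean per group and the quasi-likelihood test. The filter asked for 10 counts in 1 library, which removed none. Contrasts were the Dox effect at each time, their difference, the change with time in each arm, and the Dox difference minus that of 5FU or Ace. Genes were called at a Benjamini-Hochberg FDR below 0.01, and adjusted p-values run over all 14554 genes. An effect grew where both single effects were called with 1 sign and the later was larger, and faded where it was smaller. The 28 libraries had TMM factors of 0.911 to 1.06, and 12158 genes had at least 10 counts in every library. The fit was also run on simulated counts in which a small set of genes was changed in Dox_24 alone, equally in both directions. Far more genes changed in the real libraries, so that run cannot show how the scaling or the error rate held here. CPM are TMM-scaled. Named genes were the 8 largest differences in each direction and the 4 largest per kind of change and direction, among called genes with a symbol and a mean of at least 100 counts, and up to 4 per direction in each gene list beside genes that define it, and some of these are not reported here. The comparison, the gene lists and the genes were chosen with earlier results of these data known. Alternatives were DESeq2 1.42.0, DESeq2 size factors, scaling by totals, the 28 libraries alone, other filters and thresholds, and each library left out. Bounds against a floor use 3 counts per library and cover counting error only.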

Additional observations from a re-analysis of the deposited data

Results flagged for a closer look

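Of 200 groups of 7 libraries examined, 32 held a library whose gap to its nearest neighbour was past Dixon's 95% critical value, where chance gives about 1 group in 20. Library 7 of a Dox group was the lowest in most cases among genes of muscle and the cytoskeleton. In Dox_6 it had 106 CPM of Xirp2, 3791 of Actc1, 27.4 of Nppb, 452 of Acta2 and 96.3 of Hspa1b. In Dox_24 it had 23.0 of Xirp2, 90.1 of Actc1, 14.2 of Nppb, 59.3 of Acta2, 31.3 of Cpt1b and 359 of Hspa1b, and it was the highest for Pdk4 with 178 and for the library total with 25738297 counts. The differences of Xirp2, Actc1, Nppb and Acta2 were as large without the 2 libraries numbered 7, at -4.23, -4.33, -1.50 and -1.69.

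Library 4 of Dox_6 was the highest of its group for Arhgef15 (3.51 CPM), Klf6 (11.5), Dlat (301), Cpt1b (334), Srxn1 (12) and Hmox1 (130). In Dox_24 the highest libraries were library 5 for Cldn5 (0.173) and Il6 (1.5), library 6 for Myom2 (18.9) and library 4 for Ndufs7 (58.2), and library 3 was the lowest for Polr2a (1122). In Dox_6 library 2 was the lowest for Hist1h2an (1.04). Among controls, DMSO2_24 held high values of Cyp1a1 (1.34, library 3), Hist1h2an (0.673, library 7), H2az2 (76.3, library 5) and Il6 (0.0531, library 5) and a low value of Acta2 (233, library 4). DMSO2_6 held a high value of Acta2 (561, library 7) and a low value of Ptgs2 (1.78, library 3).

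Effects differed between times for 9424 genes by edgeR's test of the difference itself. For 1209 of these both single effects also passed the threshold, in opposite directions. The Dox difference departed from that of 5FU for 7756 genes and from that of Ace for 9236 genes.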

How the results depend on the processing

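No paired analysis was possible because the columns carry group names without replicate numbers. Leaving out each library in turn gave between 9271 and 9433 called genes, between 4835 and 5044 upward and between 4291 and 4470 downward. DESeq2 called 9512 genes, edgeR with DESeq2 size factors 9418, the fit of the 28 libraries alone 9232, filterByExpr 9397 and no filter 9424, and they shared 99.4%, 99.5%, 96.5%, 98.5% and 100% of the 9424. No gene shared with the 9424 had the opposite direction in these fits. Without the 2 libraries numbered 7, an alternative chosen after seeing the data like the one without 4 libraries, 9271 genes were called, of which 9092 were shared.

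Scaling by totals alone called 9613 genes and moved the kinds of change. Reversing genes were 988 upward and 192 downward, transient effects 784 lowered and 156 raised, fading effects 545 lowered and 21 raised, and 50 and 25 genes passed at neither time. At an FDR below 0.1, 11037 genes were called, with 930 reversing upward and 1007 downward, 557 lowered and 216 raised effects fading, and 17 and 13 genes passing at neither time. With at least 1 log2 unit, 3770 genes were called, 2019 upward and 1751 downward. Of these 821 and 780 had grown upward and downward, 697 and 698 were late, 321 and 213 reversed, 134 and 45 transient effects had been lowered and raised, 38 and 7 fading effects likewise, and 8 and 8 passed at neither time. Apart from the genes whose lost calls are given in the report, named genes lost their call without single libraries as follows: Acvr1 (-0.35 to -0.23, 11 libraries), Foxc2 (-0.63 to -0.41, 9), Sgo2 (0.51 to 0.75, 8), Rpa3 (-0.49 to -0.36, 6), Hba-a1 (0.77 to 1.03, 6), Top3a (0.28 to 0.40, 4) and Polr2c (0.20 to 0.26, 4). Of the median differences and counts of gene lists over the 38 alternatives, 162 values moved. Counts were taken as moved by over 1.5 times, and medians by at least the median SE of the list's members. The alternatives with other thresholds are among these, and a changed threshold changes the counts by itself. The cause of the other moves was not tested. Without single libraries the TCA cycle genes that moved up were 2 in place of 1 (Dox_24 library 3 or 6), and the blood markers that moved up between 1 and 3. At these depths genes with 3 counts or fewer per library in a group gave bounds and not folds.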

Other observations

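Gene lists not described above were mixed, and their counts stand against 34.0% of all genes up and 30.8% down. Of 35 genes of sterol and fatty acid synthesis, the Dox effect moved up for 14, with Acly (1.86) and Idi1 (1.62) first, and down for 7, with the desaturases Fads1 (-1.97) and Scd (-1.44). In the DMSO2 cultures 30 of the 35 fell between the times, and in Dox 27. Of 32 genes of phospholipid synthesis 15 moved up, with the ethanolamine and choline kinases Etnk2 (2.73) and Chka (1.93), and 11 moved down, with Ptdss2 (-1.73) and the cardiolipin synthase Crls1 (-1.28). Of 26 genes of iron handling and ferroptosis 7 moved up and 11 down. Hamp (-1.87), which encodes hepcidin, moved down, and the cystine transporter Slc7a11 went from -0.75 to 0.29.

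Of 28 genes of the ATF4 response 11 moved up, with Ddit3 (1.76), and 9 down, with the mitochondrial folate enzyme Aldh1l2 (-2.15) and Atf5 (-1.52). Of 27 genes of endoplasmic reticulum stress 6 moved up, with Ppp1r15a (1.58), and 13 down, with Hspa5, which encodes BiP (-1.001). Among 31 splicing factors of the SR and hnRNP families 12 moved up and 7 down. Srsf5 reversed from -0.53 to 1.10, and Hnrnpa1 (-1.58) and Hnrnpa2b1 (-1.19) moved down. Of 42 genes of autophagy and the lysosome 13 moved up and 18 down, and of 35 aminoacyl-tRNA synthetases 6 up and 15 down. Of 263 zinc finger (Zfp) genes 72 moved up, with Zfp438 reversing from -1.96 to 0.91, and 81 down. In all, 58.2% of them were called, against 64.8% of all genes.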
